A study of Saccharomyces cerevisiae with 4 samples.

Results

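Transcripts of 60 ribosome assembly and rRNA processing genes of budding yeast (Saccharomyces cerevisiae) were described from molecules in which both ends had been read. The genes were taken as a fixed list of names, 30 acting on the small (40S) and 30 on the large (60S) ribosomal subunit, and every deposited start-end pair on either strand within 500 bases of one of them was used. All 60 were found in the R64 annotation, which holds 6002 open reading frames (ORFs). They lay on 14 of 16 chromosomes and had 0 introns. Their windows held 11720 of the 425462 deposited isoforms and 34845 of the 1833796 reads (1.90%). Of these reads, 16743 lay on the genes themselves in the sense direction, and the other 18102 belonged to neighbouring genes or to the opposite strand.

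All libraries came from a single strain, FSY3636, which is MATa and carries delta rrp6::kanMX4 in the S288c background. RRP6 encodes a nuclear exonuclease of the RNA exosome, a complex that itself trims rRNA precursors, so every value below is from cells that lack it. Cells grew in YPAD, a rich glucose medium, to mid-log phase at OD 1. TIF-Seq circularises full-length cDNA of capped and polyadenylated RNA and reads the junction, so each read gives the start and the end of 1 molecule. The 2 cultures with 2 library preparations each gave 4 libraries, which the deposited table holds as 1 pooled count. No value therefore has a replicate error, no test across samples was possible, no wild-type library was analysed here, and all intervals cover counting error only. RRP6 had 0 sense reads, which allows up to 1.64 CPM (counts scaled to a total of 1000000 reads), the a-factor gene MFA1 had 1916 CPM, and STE3, a gene of the opposite mating type, had 9 sense reads.

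Ribosomes are built in the nucleolus from a long precursor rRNA. The small-subunit (SSU) processome, a large particle that includes the UtpA and UtpB complexes, folds and cuts the part that becomes the 40S subunit. Another set of factors folds, modifies and exports the 60S subunit. Genes of this kind are known in yeast to be switched on and off together with growth, and 2 short promoter motifs, PAC and RRPE, were originally described upstream of them, so their presence here is a description of known promoters at measured start sites.

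The promoters are shown first because the measured start sites place these motifs at a base. For each gene the main start was the most used start of isoforms that cover exactly that 1 ORF, and the 250 bases before it were searched on both strands for PAC, spelled GCGATGAG, and RRPE, spelled AAAATTTT. RRPE reads the same on both strands, and because PAC begins and ends with G or C the motifs cannot overlap. The search covered the 50 assembly genes with at least 10 covering reads and all 2888 such ORFs. A match is a description of letters, not a binding site. The first set shows 140 bases that end just before the main start, from the R64 genome, 5′ to 3′ on the strand of the gene, with motifs in capitals. NIP7 (chrXVI:153326-153465, plus strand) and BRX1 (chrXV:186752-186891, minus strand) are the only genes with both motifs among the 10 best measured. BRX1 carries PAC on the opposite strand, so it reads CTCATCGC. NOP15 (chrXIV:418527-418666, minus strand) has RRPE and only the shorter core GATGAG, seen as a run of overlapping CTCATC, and EMG1 (chrXII:523435-523574, plus strand) is shown as a promoter with neither motif.
NIP7: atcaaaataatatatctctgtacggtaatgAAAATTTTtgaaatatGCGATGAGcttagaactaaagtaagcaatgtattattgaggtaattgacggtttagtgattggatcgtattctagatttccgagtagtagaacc
BRX1: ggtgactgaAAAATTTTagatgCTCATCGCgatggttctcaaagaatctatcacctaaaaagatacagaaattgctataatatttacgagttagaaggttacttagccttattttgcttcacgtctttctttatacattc
NOP15: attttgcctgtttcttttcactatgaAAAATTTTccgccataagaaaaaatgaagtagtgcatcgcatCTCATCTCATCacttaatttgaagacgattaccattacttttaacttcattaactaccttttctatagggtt
EMG1: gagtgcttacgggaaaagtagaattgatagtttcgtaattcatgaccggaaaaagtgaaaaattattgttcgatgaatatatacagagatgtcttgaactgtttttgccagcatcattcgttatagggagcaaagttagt

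PAC was found upstream of 27 of the 50 assembly genes (54%), against 167 of the 2888 ORFs (5.78%). RRPE was found upstream of 34 assembly genes (68%), against 372 ORFs (12.9%). Both stood together upstream of 18 assembly genes (36%), against 88 ORFs (3.05%). Among the assembly genes, 9 had PAC alone, 16 had RRPE alone, and 7 had neither, namely RRP17, EMG1, UTP30, SOF1, NOP4, UTP18 and RRP9. Genes of either subunit carried the motifs, with PAC at 15 of 25 60S genes and 12 of 25 40S genes and RRPE at 19 and 15. Assembly genes outside the 60, in lists of RNA polymerase I subunits, helicases and AAA ATPases, and further 40S and 60S factors, had PAC at 30 of 61 (49.2%), RRPE at 50 (82.0%) and both at 26 (42.6%).

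The motifs were also compared by position and order. The first base of PAC lay at a median of 79 bases upstream of the main start, and in 25 of the 27 assembly genes it lay between 130 and 50 bases upstream, against 103 of the 167 ORFs with PAC (61.7%). The exceptions were UTP8, at -191, and RRP3, at -165, and the nearest was UTP11, at -54. RRPE lay farther out, at a median of -100.5, against -104.5 over all ORFs with RRPE, and between -142 in UTP5 and -53 in NSA1. Where a gene had more than 1 match, the one nearest the main start was used. In 17 of the 18 genes with both, RRPE came first, against 56 of the 88 ORFs with both, and 19 of 26 among the assembly genes outside the 60. The distance from the first base of RRPE to that of PAC was counted as negative where PAC came first. Its median was 16.5 bases in the 18 genes (-27 to 52) and 11.5 in the 88 ORFs (-68 to 101). Because PAC came first more often among the 88 ORFs, these medians do not compare how close the motifs lie. NOP7, which encodes a 60S factor of the early nucleolar particles, was the exception, with PAC at -103 and its nearest RRPE at -76, although a further RRPE at -113 came before PAC. PAC stood on the strand of the gene in 21 assembly genes and on the opposite strand in 6, against 96 and 71 over all ORFs. The next lines show the stretch from RRPE to PAC, with 2 flanking bases, in the other 6 of the 8 best measured genes with both motifs, to show how the spacing varies: RLP7 at chrXIV:627235-627283 (minus), BUD21 at chrXV:472599-472627 (plus), NSA2 at chrV:414303-414329 (minus), MRT4 at chrXI:426101-426133 (plus), RPF2 at chrXI:592653-592682 (minus) and UTP6 at chrIV:1359000-1359033 (minus).
RLP7: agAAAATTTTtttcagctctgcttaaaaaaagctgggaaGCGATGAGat
BUD21: tgAAAATTTTtcttttcaaGCGATGAGgt
NSA2: gaAAAATTTTccggacaGCGATGAGat
MRT4: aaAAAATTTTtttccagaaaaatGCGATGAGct
RPF2: tgAAAATTTTtcatttttttGCGATGAGct
UTP6: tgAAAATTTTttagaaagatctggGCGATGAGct

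**Figure D1:**
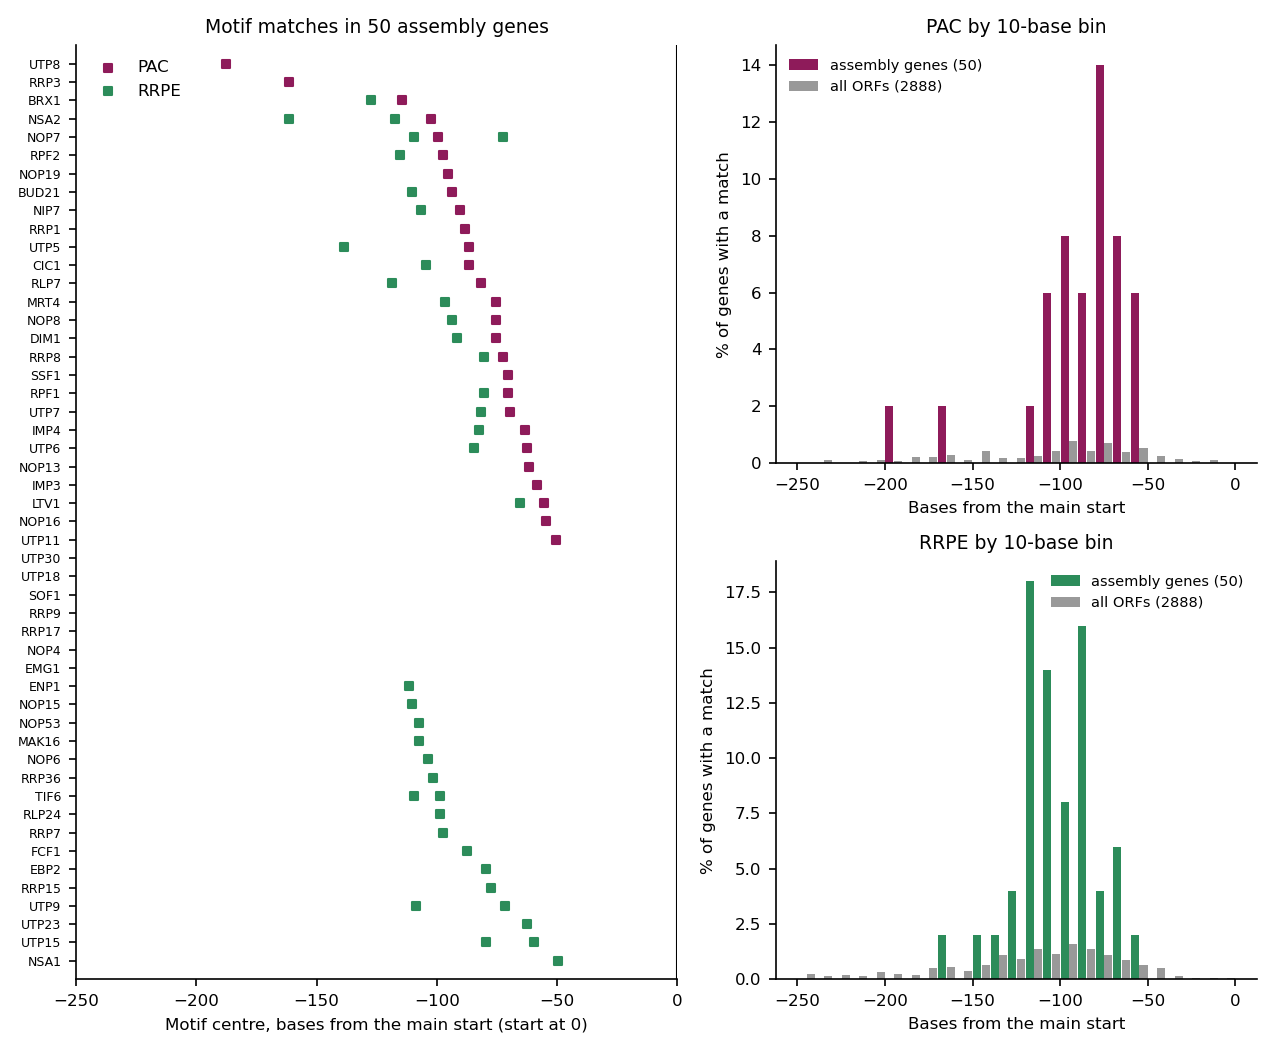
Centres of PAC and RRPE matches relative to the main start (0) in 50 assembly genes, 1 row per gene, and the percentage of genes with a match per 10-base bin for the 50 assembly genes and for all 2888 ORFs. Most PAC matches sit between -130 and -50, RRPE lies mainly to their left, and 7 genes have no match.

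A single PAC match lay upstream of 2 members of the list. RRP3, a DEAD-box helicase of 40S assembly, and SSF1, a 60S factor of the Brix family, are divergent neighbours on chromosome VIII with 297 bases between their ORFs. Their main starts were 231 bases apart, at 229080 on the minus strand and 229312 on the plus strand. The 1 PAC between them lay at -165 for RRP3 and at -74 for SSF1, and neither had RRPE in the spelling AAAATTTT. The stretch below does hold AAATTTTT, which is the alternative spelling AAAAATTT read on the other strand. RRP3 had 115 covering reads and SSF1 had 50. The whole stretch between both main starts (chrVIII:229081-229311, plus strand) is printed because it is the only promoter shared inside the list.
RRP3-SSF1: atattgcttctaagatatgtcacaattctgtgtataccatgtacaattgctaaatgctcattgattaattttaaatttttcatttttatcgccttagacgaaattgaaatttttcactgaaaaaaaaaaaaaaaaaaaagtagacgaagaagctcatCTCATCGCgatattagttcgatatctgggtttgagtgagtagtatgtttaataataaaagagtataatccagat

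Levels were read from isoforms that cover the ORF from start to stop codon, as CPM of all reads, in which 1 read is 0.545 CPM. A read spans a molecule from start to end, so CPM is not divided by length. Whether PCR copies were collapsed is not given, so several reads may stem from 1 molecule, which the intervals do not cover. Because the libraries came from bulk cultures, fewer cells with an RNA and less RNA per cell cannot be told apart. The 60 genes together had 13511 covering reads, a sum of 7368 CPM (95% Poisson interval 7244 to 7493), or 0.952% of the reads that cover any ORF. At least 1 covering read was found for 59 of the 60, where 74.7% of all ORFs had one. At least 20 were found for 45, where 40.2% of all ORFs reached that number, and at least 100 for 27, where 20.4% did. The median assembly gene had 47.4 CPM (87 reads), and the median ORF had 4.64 CPM (8.5 reads). The top 5 genes held 44.2% of the covering reads, so the sum rests on few members.

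Long ORFs gave few covering reads throughout the table, so members are set beside ORFs of the same length. Up to 750 coding bases, the median was 449 covering reads for 12 assembly genes and 54 for 1709 ORFs. From 751 to 1000 bases it was 230 for 15 assembly genes and 40 for 730 ORFs, and from 1001 to 1500 bases 50.5 for 16 and 16 for 1332. From 1501 to 2000 bases it was 20 for 9 assembly genes and 5 for 909 ORFs. Above 2000 bases it was 5 for 8 assembly genes and 0 for 1322 ORFs. The assembly genes thus had the higher median in each of these length classes, without a replicate error to set against the difference.

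The UtpA complex, which is among the first to bind the precursor, was represented in the list by 5 genes. These were long (median coding length 1932 bases) and summed to 58.3 CPM, with a median of 10.9 CPM. Sums here are those of the listed genes, not of whole complexes. UTP5 had 21.3 CPM (15.1 to 29.1), UTP15 had 20.7 CPM and UTP9 had 10.9 CPM, intervals that overlap. UTP8 had 5.45 CPM, and UTP4 had 0 covering reads, which allows up to 1.64 CPM, and 4 sense reads of other classes. The 3 listed genes of the UtpB complex, which joins after UtpA, summed to 110 CPM, with a median of 9.82 CPM. UTP6, the shortest of the 3, held 97.6 CPM (83.8 to 113). UTP18 had 9.82 CPM and UTP13 2.73 CPM, from 18 and 5 reads. IMP3 and IMP4, which help the U3 small nucleolar RNA pair with the precursor, had 86.2 CPM (73.2 to 101) and 52.9 CPM (42.9 to 64.5), intervals that do not overlap.

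The other 20 small-subunit factors summed to 2285 CPM. FCF1, a PIN-domain protein of the early cleavages, had 546 CPM (513 to 581) and NOP6, an RNA-binding protein of the processome, 527 CPM (494 to 561). These levels do not differ beyond counting error. BUD21 had 176 CPM (157 to 196), ENP1 175 CPM (156 to 195), and RRP7 164 CPM (146 to 184), again with overlapping intervals. UTP11 had 126 CPM and EMG1, an rRNA methyltransferase, 125 CPM. UTP23, a relative of FCF1, had 87.3 CPM, UTP30 68.7 CPM, and RRP36 and RRP3 62.7 CPM each. The rRNA dimethyltransferase DIM1 had 50.2 CPM. SOF1, LTV1, NOP19 and UTP7 lay between 23.4 and 27.8 CPM. RRP9, a protein of the U3 particle, had 6.54 CPM from 12 reads, and UTP14, NOP14 and NOP9, each with over 2000 coding bases, had 6, 5 and 5 reads.

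The 30 large-subunit factors summed to 4775 CPM, with a median of 47.4 CPM, and the 40S genes to 2593 CPM, with a median of 39.0 CPM. The 60S genes were shorter, with a median coding length of 1083 bases, against 1422 for the 40S genes. NOP15, an RNA-binding factor of the early 60S particle, was the highest member of all, at 920 CPM (877 to 965) from 1687 reads. NIP7 followed with 765 CPM (726 to 806) from 1403 reads and BRX1, of the Brix family, with 499 CPM (467 to 532). The BRX1 partner EBP2 had 296 CPM (272 to 322), RRP17, an exonuclease, 313 CPM (288 to 340), and RRP1 295 CPM (271 to 321), and these 3 do not differ beyond counting error. NOP16 had 253 CPM. The ribosomal protein mimics RLP24 and RLP7 had 237 and 222 CPM, and MRT4, a placeholder for a protein of the ribosomal stalk, 137 CPM. RRP15 had 230 CPM, NSA2 146 CPM, the 5S particle factor RPF2 109 CPM, and MAK16 82.9 CPM.

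Below these came NOP13 (49.6 CPM), NSA1 (45.3), CIC1 (31.6), the subunit-joining inhibitor TIF6 (29.4), SSF1 (27.3) and RPF1 (19.6 CPM). NOP4 had 14.2 CPM, NOP8 13.6, the methyltransferase RRP8 11.5, NOP53, which brings the exosome helicase to the particle, 9.82, and NOP7 7.09 CPM. NOP12 had 9 covering reads, RRP14 3, and the methyltransferase NOP2 and the early factor MAK21 1 each. SSF1 and SSF2 are paralogs whose coding sequences of 1362 bases are 92.1% identical, with identical runs of up to 92 bases. They had 50 and 7 covering reads, and since how reads matching both were placed is not given in the sources used here, this split is uncertain.

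**Figure D2:**
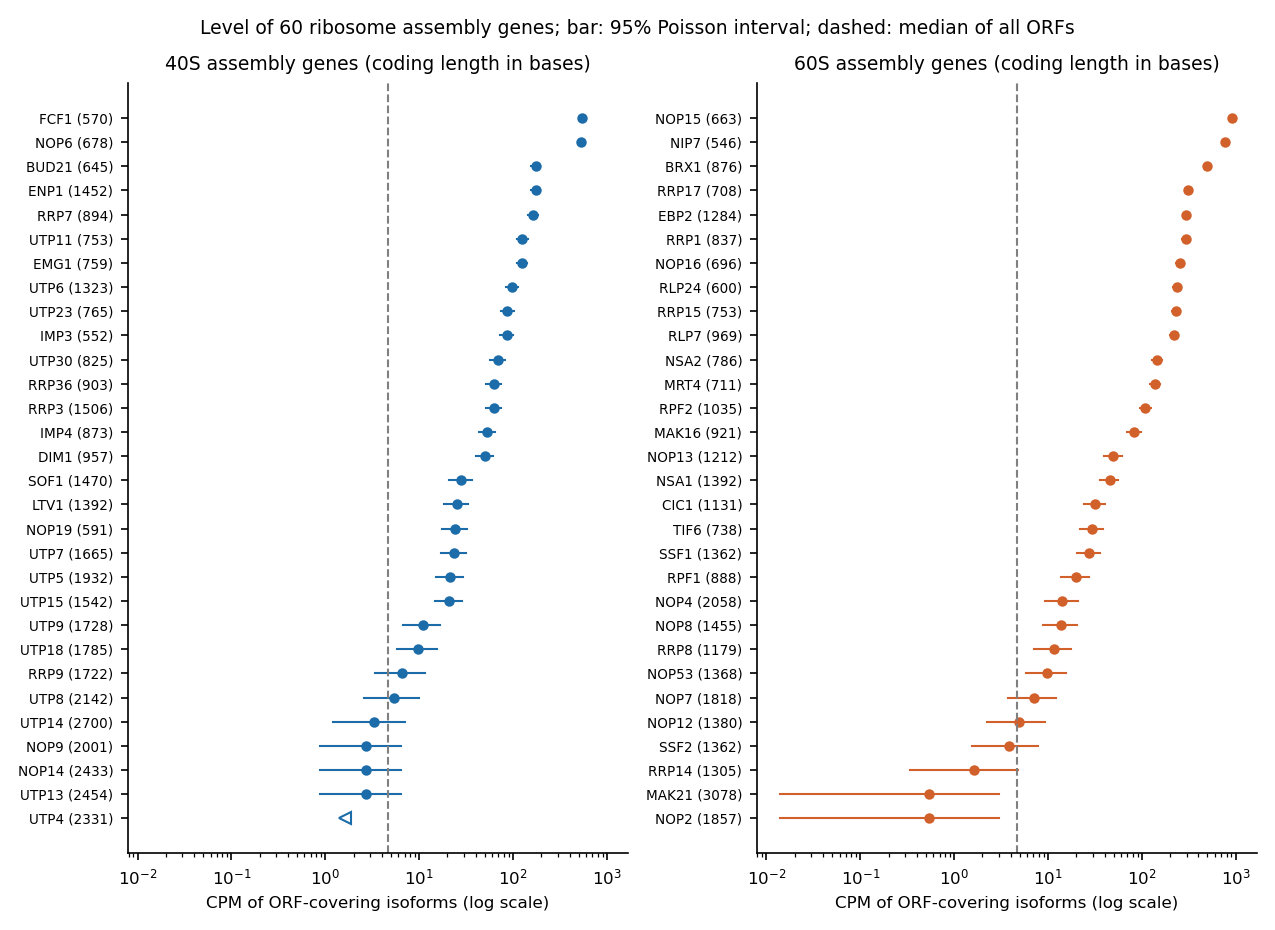
Level of each of the 60 assembly genes as CPM of ORF-covering isoforms on a log axis, 40S genes left and 60S genes right, with coding length in brackets and 95% Poisson intervals. The open triangle is the limit of 1.64 CPM for UTP4 with 0 reads, and the dashed line is the median of all ORFs, 4.64 CPM.

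Each sense read was placed by how it spans its gene. Isoforms covering exactly 1 ORF held 80.2% of the sense reads of the assembly genes (Wilson interval 79.6 to 80.8), against 85.9% over all ORFs. Late-start isoforms, which begin inside the ORF and run past its stop codon, held 16.5% (16.0 to 17.1), against 11.1%. Early-end isoforms, which begin upstream and end inside the ORF, held 1.81% (1.62 to 2.02), against 2.21%. Counted over distinct isoforms, early ends remained the lower share in the assembly genes, at 3.03% against 5.81%, and late starts came to 33.9% against 32.6%. Isoforms that lie wholly inside the ORF held 0.974%, against 0.449%, and isoforms that cover several ORFs 0.532%, against 0.297%. The late-start share grew with gene length in both sets. Over genes with at least 50 sense reads its median up to 750 bases was 6.48% for 12 assembly genes and 5.56% for all ORFs. From 751 to 1000 bases it was 11.4% for 15 assembly genes and 13.2% for all ORFs. From 1001 to 1500 bases it was 38.7% for 14 and 23.9%, and from 1501 to 2000 bases 51.7% for 7 and 41.3%. Above 2000 bases it was 61.4% for only 4 assembly genes and 81.0% for all ORFs, so neither set was higher throughout.

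Late starts made up more than 50% of the sense reads in 8 of the 52 assembly genes with at least 50 sense reads, where 17.1% of such ORFs passed that level. These were UTP13 (92.5%), UTP18 (86.5%), NOP7 (81.8%), UTP14 (75.4%), UTP9 (66.7%), NOP53 (62.7%), NOP8 (58.3%) and UTP5 (51.7%). In UTP18, 74 of 154 late-start reads were a single isoform that began 787 bases after the first base of the start codon. In NOP7, 42 of 90 were a single isoform beginning at base 1502. In NOP8, 19 of 49 were a single isoform beginning at base 735. In UTP5 the reads were spread, with 62 late-start reads on 59 isoforms. With at least 2 reads per isoform, the share was 18.2% in NOP53 and 25% in UTP5, below the threshold. The lowest late-start shares were those of UTP11 (3.69%), EMG1 (3.75%), NOP6 (3.83%), NOP15 (4.20%) and RRP7 (4.72%).

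Some late starts lay just past the start codon. In UTP6, 40 of the 131 late-start reads were 1 isoform beginning 5 bases after the first base of the start codon, where its full isoforms began at a median of 41 bases upstream. In FCF1, 38 of 65 began within the first 30 bases of the ORF. In NSA2, 46 of 101 were 1 isoform that began at base 487, and in BRX1 222 reads of this class were 19.5% of its sense reads. These reads begin after the first base of the annotated start codon, so as read they lack a complete one. Whether they mark starts used in the cell was not tested.

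Early ends passed 20% of the sense reads in 1 of the 52 genes, RRP14, with 29.3%, where 7.58% of such ORFs passed. All 17 of its early-end reads and all 31 of its inside reads stopped where at least 6 of the next 10 genomic bases were A (called A-rich here). What part A-rich genome plays in these ends was not tested. ENP1 came next with 18.9%, or 97 reads, of which 90 were a single isoform running from 19 bases upstream of the start codon to base 1041, and 0 of the 97 stopped before such a stretch. UTP5 followed with 15.8%, 19 reads on 18 isoforms whose median start lay 366 bases upstream of the start codon, then RRP8 with 13.2% and NOP8 with 11.9%. In 16 of the 52 genes the early-end share was 0, among them NOP15, NIP7 and BRX1, against 1003 of 2376 ORFs. The median gene had an early-end share of 1.14% among the assembly genes and 0.297% among all ORFs, the opposite order to the shares of pooled reads. Over the assembly genes, 158 of the 163 inside reads (96.9%) and 136 of the 303 early-end reads (44.9%) stopped before an A-rich stretch, against 2217 of 7387 and 10785 of 36347 reads (29.7%) over all ORFs. Most inside reads came from MAK21, with 90, RRP14, with 31, and NOP14, with 20, and each of these reads stopped before an A-rich stretch. The genome at the end of the leading internal isoform is printed for these genes, with ENP1 beside them as the contrast, 15 bases up to the end, then the next 10 in capitals: RRP14 at chrXI:281397-281426 (minus), MAK21 at chrIV:572796-572825 (plus), NOP14 at chrIV:188174-188203 (minus) and ENP1 at chrII:713399-713428 (minus). The capitals hold 7 A in each of the first 3 and 2 A in ENP1.
RRP14: aagttattagaagccAAGAAGAATAagatg
MAK21: aggggacaaggacatAAAAAGGAAGgaata
NOP14: aaaaaaacaagtatgAAAGAGAAAGaaaac
ENP1: ctaaagtctctgttcCGGCTTTACAttctt

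**Figure D3:**
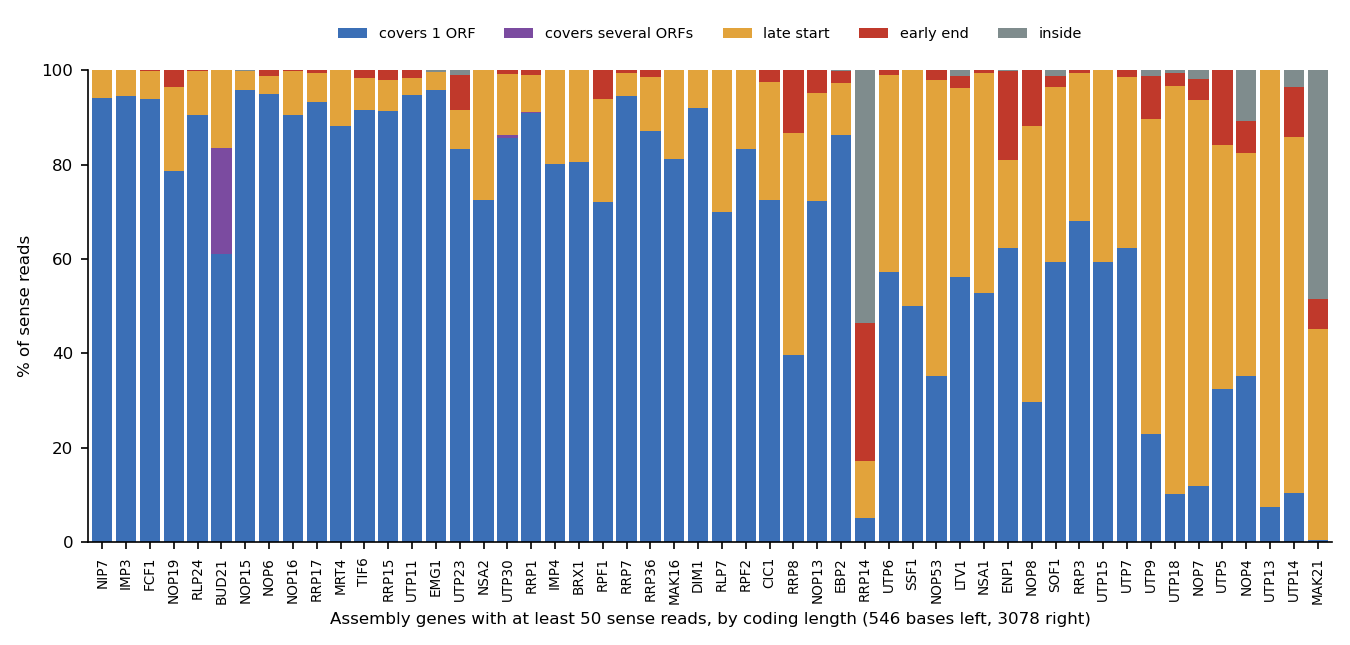
Share of sense reads by isoform class in the 52 assembly genes with at least 50 sense reads, ordered by coding length from 546 to 3078 bases. Late starts widen toward the long genes, RRP14 and MAK21 stand out by inside reads, RRP14 and ENP1 by early ends, and BUD21 by isoforms covering several ORFs.

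Leaders and 3′ untranslated regions (UTRs) were measured as read-weighted medians in the 45 assembly genes, and the 2388 ORFs, with at least 20 reads covering exactly that ORF. The median leader was 33 bases for the assembly genes (quartiles 26 and 50) and 39 bases for all ORFs (25 and 64.25). The longest belonged to RLP24 (145 bases), TIF6 (95), UTP11 (75), DIM1 (64) and UTP5 (62), and the shortest to NOP6 (9), SOF1 (11), RRP8 (16), UTP30 (17) and BUD21 (19). The median 3′ UTR was 102 bases for the assembly genes (quartiles 76 and 134) and 119 bases for all ORFs (86 and 166). NOP19 had the longest, at 520 bases, followed by IMP3 (342), NOP4 (329), TIF6 (209) and NSA2 (201). BUD21 had the shortest, at 40 bases, followed by UTP9 (51), NOP8 (61), RLP7 (65) and DIM1 (67). Of the 63 late-start reads of BUD21, 44 stopped at its main end and 53 before an A-rich stretch. The part of A-rich genome in the BUD21 end was not tested.

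**Figure D4:**
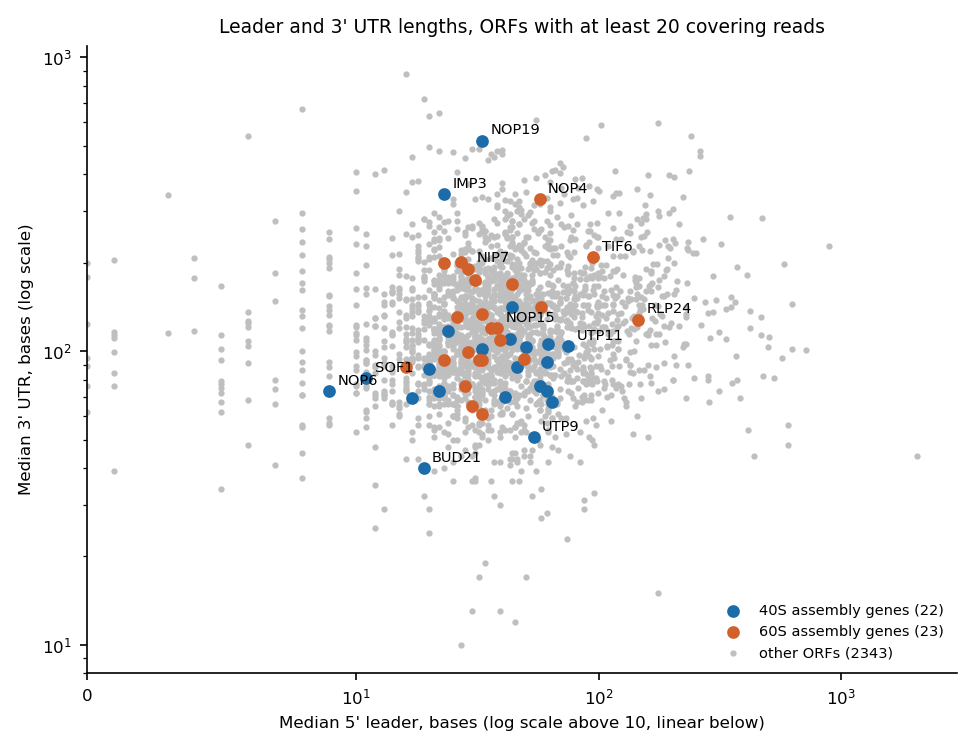
Median leader and 3′ UTR length of 45 assembly genes and 2343 other ORFs with at least 20 covering reads, both axes on log scales (linear below 10 bases for leaders). The assembly genes lie inside the cloud of other ORFs, with RLP24 to the right, NOP6 to the left, NOP19 at the top and BUD21 near the bottom.

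Start and end sites varied among molecules of the same gene. The main start held a median of 36.0% of the reads of an assembly gene, against 35.5% over all ORFs, and the main end 38.5%, against 36.8%. Ends were spread more widely than starts in 27 of the 45 assembly genes and less widely in 18, against 1417 and 942 of all ORFs. NIP7 showed the contrast within 1 gene, since its main start held 66.1% of the reads and its main end 14.4%. UTP6 was the reverse, with 29.6% at its main start and 88.3% at its main end. That end also held 117 of the 131 late-start reads of UTP6, and 129 of the 131 stopped before an A-rich stretch. The effective number of isoforms (perplexity, from the entropy of reads over isoforms) had a median of 32.0 in the 27 assembly genes with at least 100 covering reads and 36.8 in all such ORFs. It ran from 11.7 in UTP6 to 128 in FCF1, whose most used isoform held 6.79% of the reads.

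An ATG in the leader upstream of the annotated start codon was rare in assembly genes. It was present in 1.19% of 13309 covering reads (Wilson interval 1.02 to 1.39), against 3.81% over all ORFs. It was present in over 10% of the reads in 4 of the 45 genes, where 20.6% of ORFs passed that level. These were IMP4 (21 of 97 reads), RRP8 (3 of 21), BUD21 (29 of 235) and UTP5 (4 of 39). In 25 of the 45 genes no read had one, against 1039 of 2388 ORFs. NOP53 lay below the minimum of 20 reads and is named after its values were seen. Of its 18 reads, 17 included an ATG that lies 19 bases before the start codon and out of frame with it. The genome there (chrXVI:277524-277551, minus strand) is printed with the upstream ATG first and the annotated one second, in capitals.
NOP53: ttaATGaatcatttatttaaaaATGgct

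BUD21, which encodes a processome protein, was the 1 assembly gene with at least 10 reads on isoforms covering several ORFs, where 0.666% of all ORFs had as many. Its upstream neighbour on the same strand is RTS2 (YOR077W, chromosome XV, 471899 to 472597), 127 bases away. In all, 87 reads on 11 isoforms covered RTS2 and BUD21 together, 73 of them a single isoform that began 864 bases before the BUD21 start codon. Of the 87 reads, 82 stopped before an A-rich stretch. RTS2 alone was covered by 0 reads, so each covering read of RTS2 also covered BUD21. BUD21 alone was covered by 235 reads, whose median start was 19 bases upstream, and 25 further reads were 1 isoform that began 106 bases inside it. Its PAC and RRPE matches lay between the ORFs, with RRPE from -124 to -117 and PAC from -107 to -100 relative to the BUD21 start codon, so they lie within the long isoform and upstream of the most used starts of BUD21 alone.

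**Figure D5:**
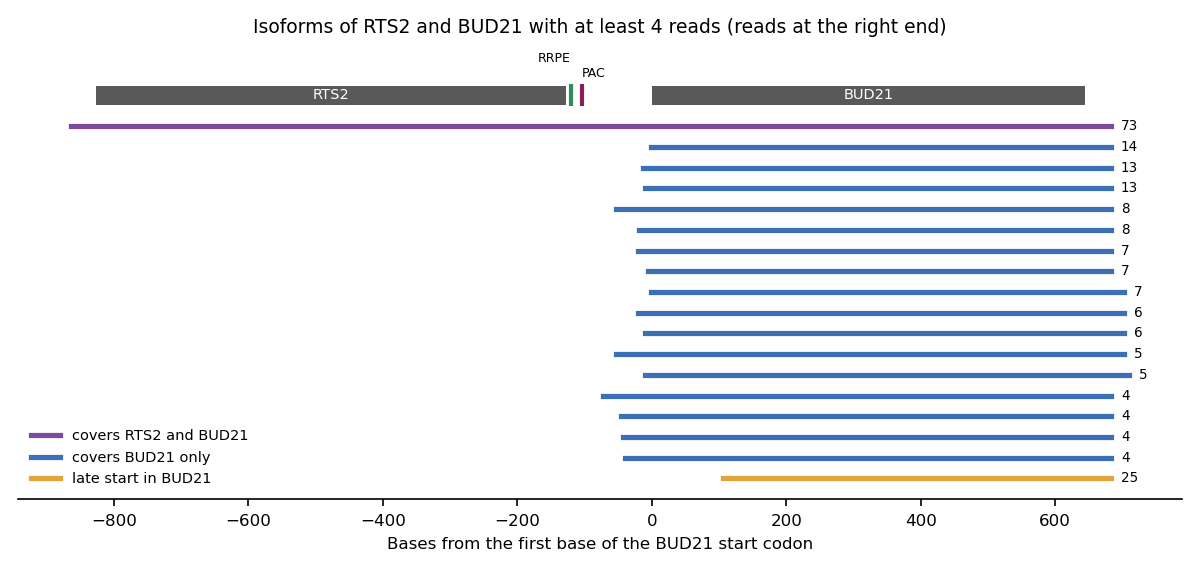
Isoforms of RTS2 and BUD21 with at least 4 reads, drawn to scale in bases from the BUD21 start codon, with read numbers at their right ends. The isoform with 73 reads spans both ORFs, while the drawn isoforms that cover BUD21 alone begin after the RRPE and PAC matches.

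The opposite strand was counted through unannotated isoforms, those with no ORF and no annotated noncoding gene on their own strand. Antisense reads, which overlap the ORF, numbered 293 at 33 assembly genes, and 27 of the 60 genes had 0, against 2195 of 6002 ORFs. At least 10 were found at 8 genes, where 19.9% of all ORFs had as many, and antisense exceeded sense reads at 0 genes, where 12.8% of ORFs had more antisense. The ORFs were not matched for level here, and their median was 8.5 covering reads, against 87 for the assembly genes. UTP5 had 59 antisense and 120 sense reads, NOP19 43 and 56, UTP30 42 and 146, and FCF1 20 and 1067. RRP1 and NOP15 had 19 antisense reads each, UTP11 16 and UTP7 13. Most of these began beyond the stop codon of the assembly gene, with 38 of 59 at UTP5, 37 of 43 at NOP19, 31 of 42 at UTP30, 20 of 20 at FCF1, 17 of 19 at NOP15 and 11 of 16 at UTP11. At RRP1 it was 1 of 19 and at UTP7 0 of 13.

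Divergent reads, which begin within 500 bases upstream of the start codon on the other strand, numbered 899, and 18 assembly genes had at least 10, where 16.8% of all ORFs did. UTP7 had 212 on 102 isoforms, with a median start 251 bases upstream. UTP14, with 6 covering reads of its own, had 198, of which 109 were 1 isoform. UTP6 had 71, NOP16 48, RRP9 47, UTP13 39, ENP1 34, UTP23 32 and NOP13 29. The 19 divergent reads of UTP4, 18 of them 1 isoform, all stopped before an A-rich stretch. Where the upstream neighbour pointed the same way, as at 32 genes, 28 had such reads, 801 in all. Where it pointed away, as at 28 genes, 4 had such reads, 98 in all. By definition an isoform that overlaps the ORF of a divergent neighbour at all is not counted here. At 22 of the 28 genes that neighbour lay within 500 bases, so these numbers do not compare the groups of genes. Of the 98 reads, 71 were at UTP6, whose divergent neighbour lay 1020 bases away.

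Ends also ran into genes on the opposite strand. NOP8, which lies 42 bases from the convergent gene RIB4, had its end inside the RIB4 ORF in 25 of 25 covering reads. In turn, 399 reads of opposite-strand mRNA overlapped the NOP8 ORF, counting an overlap of any length. NSA1 ended inside CUE3 in 44 of 83 reads, NIP7 inside SRP72 in 128 of 1403, RRP36 inside RDL2 in 17 of 115 and UTP23 inside DNL4 in 17 of 160. RRP8 had 0 such ends, while 161 opposite-strand mRNA reads overlapped its ORF, again by any length.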

How the data were processed

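Per the labels' protocols, total RNA of 4 libraries from the strain lacking RRP6 went through TIF-Seq, which selects capped and polyadenylated RNA. The authors deposited read counts per start-end pair, pooled over 4 libraries into 1 column, with 1833796 reads in all, and library depths are not separable. Build R64, Novoalign 2.07.10 and CASAVA are named in the submitters' processing notes. Neither their settings nor any collapsing of PCR copies is given in the sources used here.

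Computed here with Python 3.11.15, pandas 2.3.3, numpy 2.4.6 and scipy 1.17.1: isoforms were placed by the ORFs of their own strand, CPM was scaled to all reads, and sequences and annotation came from R64. Intervals are exact Poisson for levels and Wilson for shares, at 95%. A count of 0 allows up to 3 reads. Minimums were 20 covering reads for lengths, 50 sense reads for class shares and 10 covering reads for motifs. Class assignment was tested on simulated data. One group with no replicates allowed no test. The named genes are the 5 highest and lowest per readout, all genes past a threshold, those without covering reads and those with both motifs among the 10 best measured; further ones, and the 60 genes and lists themselves, were chosen with earlier results of these data known. DBP4 was matched as HCA4.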

Additional observations from a re-analysis of the deposited data

How the results depend on the processing

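The 4 libraries were deposited as 1 pooled column, so no culture or preparation could be left out. No paired analysis was possible because the single column carries no replicate numbers and there is 1 group. Of 62 planned values of the summary results under alternatives, 35 stayed the same and 27 moved. Same meant within the 95% interval of the main value, or within 1.5 times for counts. That interval covered counting error for levels and shares, and for lengths it was that of the median over genes. Of 14 further planned values, for single genes, 10 moved. The summed level was 9552 CPM relative to reads covering exactly 1 ORF and 6831 CPM with at least 5 reads per isoform. With at least 2 reads per isoform, at least 5, shares of distinct isoforms and no ends before A-rich genome, the covering share was 89.5%, 91.4%, 61.9% and 82.9%, counting isoforms that cover several ORFs, against 80.7%. Over all ORFs these were 92.0%, 94.0%, 60.8% and 86.3%, against 86.2%, so over distinct isoforms the assembly genes were no longer the lower set. In the same order the early-end share was 1.25%, 1.03%, 3.03% and 1.26%, and the late-start share 8.42%, 6.60%, 33.9% and 15.8%, so class shares depend on how single-read isoforms are weighed. RRP14 was not called for early ends at a minimum of 100 sense reads (0 genes, where 5.32% of such ORFs were called). With at least 2 reads per isoform the 1 gene called was ENP1 (23.0%), and without ends before A-rich genome it was UTP5 (31.7%). Under these settings 4.87% and 5.82% of ORFs were called. Late-start calls numbered 13 at 20 sense reads and 3 at 100, where 27.7% and 10.8% of such ORFs were called. With at least 2 reads per isoform they numbered 2 (NOP7 and UTP18), where 10.6% of ORFs were called. Over distinct isoforms, an alternative chosen after seeing the data, they numbered 16, where 21.2% of ORFs were called. Antisense reads numbered 1279 within 500 bases of the ORF and 79 with at least 2 reads per isoform, at 10 or more reads in 30 and 4 genes. Divergent calls numbered 6 with at least 2 reads per isoform. The shares over all ORFs were not computed for these antisense and divergent alternatives. With the core GATGAG, 43 genes had PAC (20.4% of ORFs) and 29 both motifs (6.65% of ORFs), and with at least 50 covering reads 11 of the 35 genes left had both (3.20% of ORFs). Leader ATGs with an in-frame stop were in 0.864% of reads. Within 1.5 times, RRPE counts ran from 24 of 35 genes (at least 50 covering reads) to 42 of 50 (AAAAATTT), against 34 of 50. Over all ORFs the shares were 14.5%, 19.1% and 12.9% in that order. Genes with at least 20 covering reads numbered 38 and 34 with at least 2 and at least 5 reads per isoform, against 45. Over all ORFs the shares were 31.4% and 25%, against 40.2%. The median leader was 33 to 35 bases and the median 3′ UTR 94 to 104 bases under the alternatives run.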

Other observations

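Divergent neighbours of assembly genes had levels of their own. Among the 22 assembly genes whose divergent neighbour lay within 500 bases, NIP7 had 1403 covering reads and PUS1, beside it, had 19. NOP6 had 966 and SHR3 442, and RLP24 had 434 and PAM18 177. NSA2 had 267 reads and LCP5, itself a 40S assembly gene outside the 60, had 165. The neighbour was higher at NOP14, with 5 reads and RPN5 at 299, at NOP2, with 1 read and GCD10 at 51, at NOP7, with 13 and GTF1 at 29, at UTP8, with 10 and SYF2 at 14, and at SSF1, with 50 and RRP3 at 115. Long neighbours such as MDM20, KAR3, UFD4 and NUP133 had 0 covering reads.

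Assembly genes outside the 60 were described by the same counts. The 10 RNA polymerase I genes summed to 1469 CPM, the 18 helicases and AAA ATPases to 291 CPM, the 25 other 40S genes to 1051 CPM and the 28 other 60S genes to 2019 CPM. Median coding lengths were 994.5, 2218.5, 1833 and 1552.5 bases in that order. Late starts passed 50% of the sense reads in 2 of 9 polymerase genes, 9 of 14 helicases, 9 of 19 40S genes and 6 of 22 60S genes with at least 50 sense reads, where 17.1% of such ORFs did. Early ends passed 20% in 1, 3, 5 and 1 of them, where 7.58% of such ORFs did. These lists differ in gene length, and the part of length in these counts was not tested.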
